A study of Rattus norvegicus with 8 samples.

Results

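Lyz2, Lgals3 and Psap encode lysozyme, galectin-3 and prosaposin, and all 3 are abundant in macrophages. On the arrays analysed here they are read by 5 probe sets, out of 8799 probe sets in the table and 4737 genes with a single symbol. A member is any probe set whose only gene symbol in the array's probe table is one of these 3 names. Lyz2 has 1 probe set (rc_AA892775_at), Lgals3 has 1 (J02962_at) and Psap has 3 (rc_AA875233_s_at, M19936_at and S81353_s_at). The 3 genes were chosen by their values on all 8 arrays, so their levels and differences are given as a description with no test.

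The samples were medial collateral ligaments of the rat knee, and total RNA from each was read on a one-colour oligonucleotide array, with 2 arrays in each of 4 groups. In unloaded healing rats the ligament was disrupted on both sides and the hind limbs were unloaded by tail suspension from 24 h after surgery. In loaded healing rats the ligament was disrupted on both sides and the labels name no unloading. Unloaded control rats had hindlimb unloading and no sham surgery, and loaded control rats had sham surgery. All ligaments were taken at 3 weeks. Strain, sex and age are not in the labels, nor is the number of animals behind each array, so every spread below may be technical only. Since the control groups differ in both loading and sham surgery, these cannot be told apart between them. Lifting the hind limbs off the ground removes weight bearing from the knee, and the title and labels set the question of how this changes ligament healing.

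Lysozyme cleaves the peptidoglycan of bacterial walls, and Lyz2 is the form made by macrophages and other myeloid cells. Galectin-3 is a lectin that binds beta-galactosides on glycoproteins; it is found in the cytosol and nucleus and is also secreted, and as the Mac-2 antigen it has long served to mark macrophages. Prosaposin is the precursor from which the lysosome cuts the saposins, small proteins that present sphingolipids to the enzymes that degrade them, and the uncut protein is also secreted. In a healing ligament, macrophages take up debris and dead cells and degrade them in lysosomes, while fibroblasts lay down new matrix. Fibroblasts can express Psap and Lgals3 as well. In whole ligament, fewer cells of a type and less RNA per cell cannot be told apart.

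The promoter of Lyz2 is shown because PU.1, the transcription factor that drives myeloid genes, is known to act on lysozyme genes. It is given as the 250 bases before the annotated start in RefSeq on rat build GRCr8, at chr7:54798012-54798261 on the minus strand, written 5′ to 3′. Capitals mark the core letters GAGGAA to which PU.1 and its relatives bind.
Lyz2: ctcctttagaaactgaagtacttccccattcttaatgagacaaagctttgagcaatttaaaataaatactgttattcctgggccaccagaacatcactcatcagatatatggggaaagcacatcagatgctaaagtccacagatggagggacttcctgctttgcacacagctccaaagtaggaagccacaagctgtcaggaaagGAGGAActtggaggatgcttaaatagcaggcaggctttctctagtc
The core lies on the coding strand 46 to 41 bases before the start. On either strand it occurs in 23.3% of 33469 rat promoter windows of the same length. Other motifs were searched on both strands as well and have no match in this window. The E-box letters CACGTG, to which the lysosomal regulator TFEB binds, occur in 5.59% of all windows. The AP-1 letters TGANTCA occur in 6.34% of them. The letters TATAAA of the TATA box occur in 12.9% of them. With 1 match in the window, no motif overlaps another. A match of letters describes the sequence and shows no binding in these samples. Of the 3 genes, 1 was found in the promoter table.

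Values are signal intensities, which the authors had already scaled between arrays. Log2 differences use log2(signal + 45.8), and the SE is that of a linear model over all 8 arrays, described in the processing section. The median signal of an array was between 238.7 and 315.9. Arrays of unloaded controls were unlike the others: over probe sets, which are not independent replicates, they correlated with the remaining 6 at 0.695 to 0.757 (Pearson), while those 6 correlated with each other at 0.822 to 0.894. All 5 member probe sets passed the filter on low signal. S81353_s_at was nearest to it, with a mean log2 signal of 8.34 where the filter lay at 7.89.

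Lyz2 read 2422 and 2466 in unloaded healing ligaments, 16260 and 13978 in loaded healing, 578.1 and 516.9 in unloaded controls, and 2144 and 1392 in loaded controls. The loaded healing arrays were the highest of the 8 and the unloaded control arrays the lowest. The 4 groups did not overlap, although unloaded healing and loaded control lay close together beside the spread of the loaded controls. Lgals3, on its single probe set, read 1506 and 1425 in unloaded healing, 4025 and 4218 in loaded healing, 314.9 and 198.7 in unloaded controls, and 1152 and 1262 in loaded controls. Its order of groups was that of Lyz2, again with no overlap between any pair.

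The 3 probe sets of Psap did not share a pattern. On rc_AA875233_s_at the signal was 4251 and 4377 in unloaded healing, 26190 and 20143 in loaded healing, 1311 and 1403 in unloaded controls, and 3151 and 2747 in loaded controls. This is the order seen for Lyz2 and Lgals3, with the loaded healing arrays highest and no overlap. On M19936_at the signal was 724.8 and 424.0 in unloaded healing, 317.5 and 324.5 in loaded healing, 522.0 and 403.3 in unloaded controls, and 488.2 and 451.2 in loaded controls. Here the loaded healing arrays were the lowest of the 8, and the other 3 groups overlapped. On S81353_s_at it was 835.1 and 318.3 in unloaded healing, 203.7 and 205.1 in loaded healing, 285.8 and 170.5 in unloaded controls, and 227.0 and 260.1 in loaded controls. Unloaded healing was the highest group on this probe set, with its 2 arrays far apart, and the unloaded controls spanned the loaded healing and loaded control values.

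**Figure D1:**
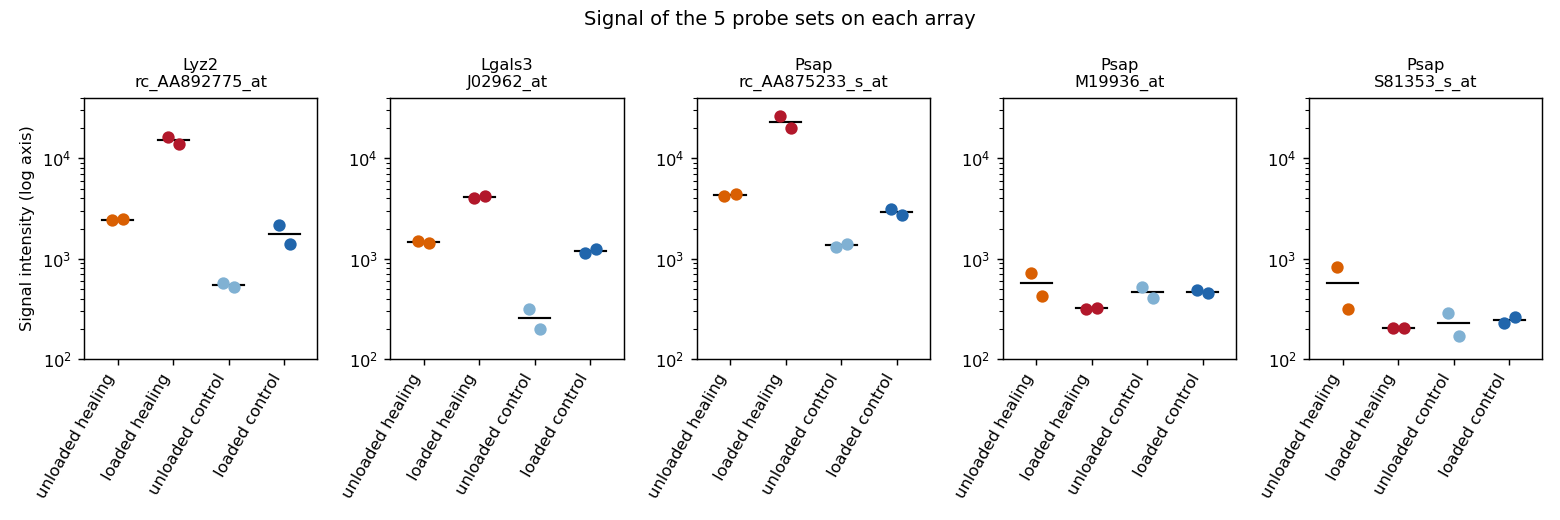
Signal intensity (log axis) of each of the 5 probe sets on every array, by group; points are arrays and bars are group means. On the Lyz2, Lgals3 and first Psap panels the loaded healing arrays are the highest, at 16260 and 13978, 4025 and 4218, and 26190 and 20143, while on M19936_at they are the lowest, at 317.5 and 324.5.

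By the array maker's naming, the ending _s_at marks a probe set that may match more than one transcript. That ending is carried by both rc_AA875233_s_at and S81353_s_at. The probe table lists no accession for rc_AA875233_s_at, and its probe sequences were not used here, so which transcripts it reads beyond its Psap annotation was not tested. Levels of different probe sets are not compared with each other, since each has its own probes.

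The first comparison is healing with sham-operated ligament in loaded rats. The Lyz2 difference, loaded healing minus loaded control, was 3.09 ± 0.24 on the log2 scale (SE, n = 2 arrays per group here and below), or 8.52-fold. Lgals3 differed by 1.73 ± 0.28, or 3.33-fold, and Psap on rc_AA875233_s_at by 2.95 ± 0.19, or 7.70-fold. Counted from the highest difference among 5244 probe sets, Lyz2 stood 8th, this Psap probe set 9th and Lgals3 75th. The other Psap probe sets read lower in loaded healing, by -0.49 ± 0.43 on M19936_at and -0.21 ± 0.57 on S81353_s_at.

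Both loaded healing arrays lay above both loaded controls for 3 of the 5 member probe sets and below both for 2. Over all probe sets, 19.4% lay above in this way and 20.3% below. With limma at an adjusted p of 0.05, 1.03% of all probe sets were higher in this comparison and 0.992% lower, and the median difference was -0.03. The genes were picked in this contrast, so nothing is read from these shares. The difference on M19936_at was close in size to its SE, and that on S81353_s_at was smaller than its SE.

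The second comparison is unloaded with loaded healing ligament, and it shares the loaded healing arrays with the first. A high loaded healing value therefore enters both, with opposite sign. Lyz2 was 6.07-fold lower in unloaded healing (log2 -2.60 ± 0.24), Lgals3 2.76-fold lower (-1.46 ± 0.28) and Psap on rc_AA875233_s_at 5.28-fold lower (-2.40 ± 0.19). On M19936_at unloaded healing read higher by 0.71 ± 0.43, and on S81353_s_at by 1.18 ± 0.57. Both of these rest mainly on unloaded healing array 1. Without it the differences were 0.36 and 0.54, and without unloaded healing array 2 they were 1.07 and 1.82.

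Both unloaded healing arrays lay below both loaded healing arrays for 3 of 5 member probe sets, with 18.4% of all probe sets doing so. They lay above both for 2 of 5, with 21.3% of all probe sets doing so. At an adjusted p of 0.05 with limma, 0.763% of all probe sets were higher in unloaded healing and 0.858% lower, and the median difference over all was 0.06.

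The third comparison sets unloaded healing against the loaded controls, which the first also uses. The difference was 0.49 ± 0.24 for Lyz2, 0.27 ± 0.28 for Lgals3 and 0.55 ± 0.19 for Psap on rc_AA875233_s_at, or 1.40-fold, 1.21-fold and 1.46-fold. On the other Psap probe sets it was 0.22 ± 0.43 for M19936_at and 0.97 ± 0.57 for S81353_s_at. Both unloaded healing arrays lay above both loaded controls for 4 of 5 member probe sets, as 17.6% of all probe sets did, and M19936_at overlapped. In this contrast 0.0763% of all probe sets passed limma's adjusted threshold in either direction, which is 4 probe sets, while 291 had an unadjusted p under 0.05. Without unloaded healing array 1 the M19936_at difference was -0.13 and that of S81353_s_at 0.33, and without unloaded healing array 2 they were 0.58 and 1.61. The Lyz2 difference was 0.79 without loaded control array 1 and 0.19 without loaded control array 2.

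Both comparisons with the unloaded controls rest on the 2 arrays that were unlike the others. Unloaded healing exceeded unloaded control by 2.07 ± 0.24 for Lyz2 (4.20-fold), by 2.35 ± 0.28 for Lgals3 (5.09-fold) and by 1.64 ± 0.19 for Psap on rc_AA875233_s_at (3.11-fold). On M19936_at the difference was 0.25 ± 0.43 and on S81353_s_at 1.08 ± 0.57. Without unloaded healing array 1 they were -0.10 and 0.44, without unloaded healing array 2 they were 0.61 and 1.72, and without unloaded control array 2 M19936_at read 0.08. Both unloaded healing arrays lay above both unloaded controls for 4 of 5 member probe sets, against 18.7% of all probe sets, and M19936_at overlapped. Over all probe sets 6.41% were higher by limma at an adjusted p of 0.05, with a median difference of -0.23, so the 3 positive differences stand further from that median than from 0.

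Unloaded controls read lower than loaded controls by -1.58 ± 0.24 for Lyz2 (2.99-fold), -2.08 ± 0.28 for Lgals3 (4.21-fold) and -1.09 ± 0.19 for Psap on rc_AA875233_s_at (2.13-fold). On M19936_at the difference was -0.03 ± 0.43 and on S81353_s_at -0.11 ± 0.57, and both probe sets overlapped between the groups. Without unloaded control array 1 they were -0.20 and -0.42, and without unloaded control array 2 they were 0.14 and 0.20. Both unloaded controls lay below both loaded controls for 3 of 5 member probe sets, as 17.2% of all probe sets did. Limma called 6.22% of all probe sets lower at an adjusted p of 0.05, with a median difference of 0.23 over all. Tendon and ligament fibroblast genes differed with them: 13 of 17 tested were lower in unloaded controls and 0 higher, with a list median of -3.32. Their part in the members' difference was not tested.

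**Figure D2:**
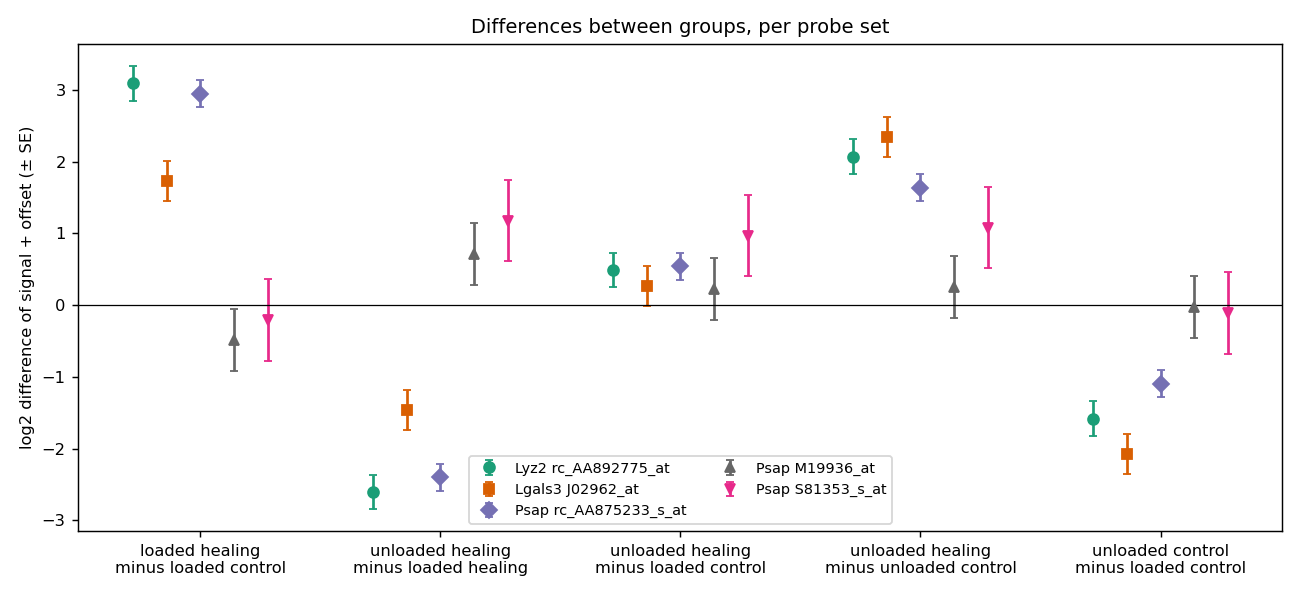
Log2 difference of signal + offset with its SE for each of the 5 probe sets in the 5 comparisons, 2 arrays per group. Lyz2, Lgals3 and Psap on rc_AA875233_s_at read 3.09, 1.73 and 2.95 in loaded healing minus loaded control and -2.60, -1.46 and -2.40 in unloaded minus loaded healing; the other Psap probe sets read -0.49 and -0.21, then 0.71 and 1.18.

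The healing difference in loaded and in unloaded rats can be set side by side for each probe set, but their controls differ. Loaded controls had sham surgery and unloaded controls had none, and the unloaded control arrays were unlike the others. In unloaded rats it was 2.07 for Lyz2, 2.35 for Lgals3 and 1.64 for Psap on rc_AA875233_s_at, against 3.09, 1.73 and 2.95 in loaded rats. Lyz2 and this Psap probe set thus had the larger value in loaded rats and Lgals3 in unloaded rats. On M19936_at the healing difference was 0.25 in unloaded and -0.49 in loaded rats, and on S81353_s_at 1.08 and -0.21. The differences between loaded and unloaded rats were not tested because the genes were chosen on these values.

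Over the 8 arrays the log2 signals of Lyz2 and Psap on rc_AA875233_s_at had a Pearson correlation of 0.994, those of Lyz2 and Lgals3 0.954, and those of Lgals3 and that Psap probe set 0.931. Over the 6 arrays without the unloaded controls the 3 values were 0.995, 0.981 and 0.989. M19936_at and S81353_s_at correlated with each other at 0.834 over 8 arrays and 0.882 over 6. Against rc_AA875233_s_at they read -0.581 and -0.112 over 8 arrays. The arrays fall in 4 groups of 2, so these values describe group differences and carry no test.

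To see which other genes follow the same course, each member probe set was correlated over the 8 arrays with 4170 other probe sets of a single symbol past the filter. The closest to Lyz2 were RT1-Da, a class II antigen-presentation gene, at 0.993, Grn, which encodes progranulin, at 0.991, and Elovl5, a fatty acid elongase, at 0.986. The closest to Psap on rc_AA875233_s_at were RT1-Da at 0.992, Mmp12, the macrophage metalloelastase, at 0.988, and Fcgrt, the neonatal Fc receptor, at 0.981. The closest to Lgals3 were B2m, the light chain of class I molecules, at 0.990, Hspe1, a mitochondrial chaperonin, at 0.989, and Ssr4, a subunit of the translocon-associated complex, at 0.987. A correlation over 0.9 was shared by 89 probe sets with Lyz2, 126 with Lgals3 and 71 with rc_AA875233_s_at, so the named genes are the head of a long row. RT1-Da headed the row for both Lyz2 and Psap.

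RT1-Da read 1803 and 2051 in unloaded healing, 8040 and 6386 in loaded healing, 831.1 and 897.9 in unloaded controls, and 2055 and 1621 in loaded controls. Its loaded healing arrays were again the highest, and its unloaded healing arrays overlapped the loaded controls. B2m, the closest to Lgals3, read 2746 and 2605 in unloaded healing, 10462 and 7551 in loaded healing, 186.1 and 60.9 in unloaded controls, and 2012 and 1855 in loaded controls. Like Lgals3 it was lowest in the unloaded controls.

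Without the unloaded controls the order of likeness changed. Over those 6 arrays Psmb4, a proteasome subunit, was closest to Lyz2 at 0.994, and Fabp5, a fatty acid binding protein, was closest to rc_AA875233_s_at at 0.998. Map2k1, the kinase MEK1, was closest to Lgals3 at 1.00, with Slc25a5, a mitochondrial ADP/ATP carrier, at 0.996. Psap on rc_AA875233_s_at then had B2m second at 0.997. Grn was the gene among the first 3 for Lyz2 over both sets of arrays, at 0.991 in each. Rps4x-ps9, a ribosomal protein pseudogene, was among the first 3 for Lyz2, Lgals3 and rc_AA875233_s_at over the 6 arrays, at 0.993, 0.993 and 0.996; near-identical ribosomal copies cannot be separated on the array.

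The other Psap probe sets had different neighbours. Over 8 arrays the closest to M19936_at were Cdkn1a, the cell-cycle inhibitor p21, at 0.910, the chemokine Cx3cl1 at 0.901, and the adhesion molecule Ncam1 at 0.890. The closest to S81353_s_at were Cp, which encodes ceruloplasmin, at 0.853, the mevalonate kinase Mvk at 0.850, and the interferon regulatory factor Irf7 at 0.822. Over 0.9 there were 2 probe sets for M19936_at and 0 for S81353_s_at. Over 6 arrays the closest were Nipsnap2 (0.985), Tgfb2 (0.957) and Arl1 (0.952) for M19936_at, and Ckmt1 (0.991), Igfbp2 (0.986) and Foxe3 (0.973) for S81353_s_at. No gene was among the first 3 for both of these probe sets.

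**Figure D3:**
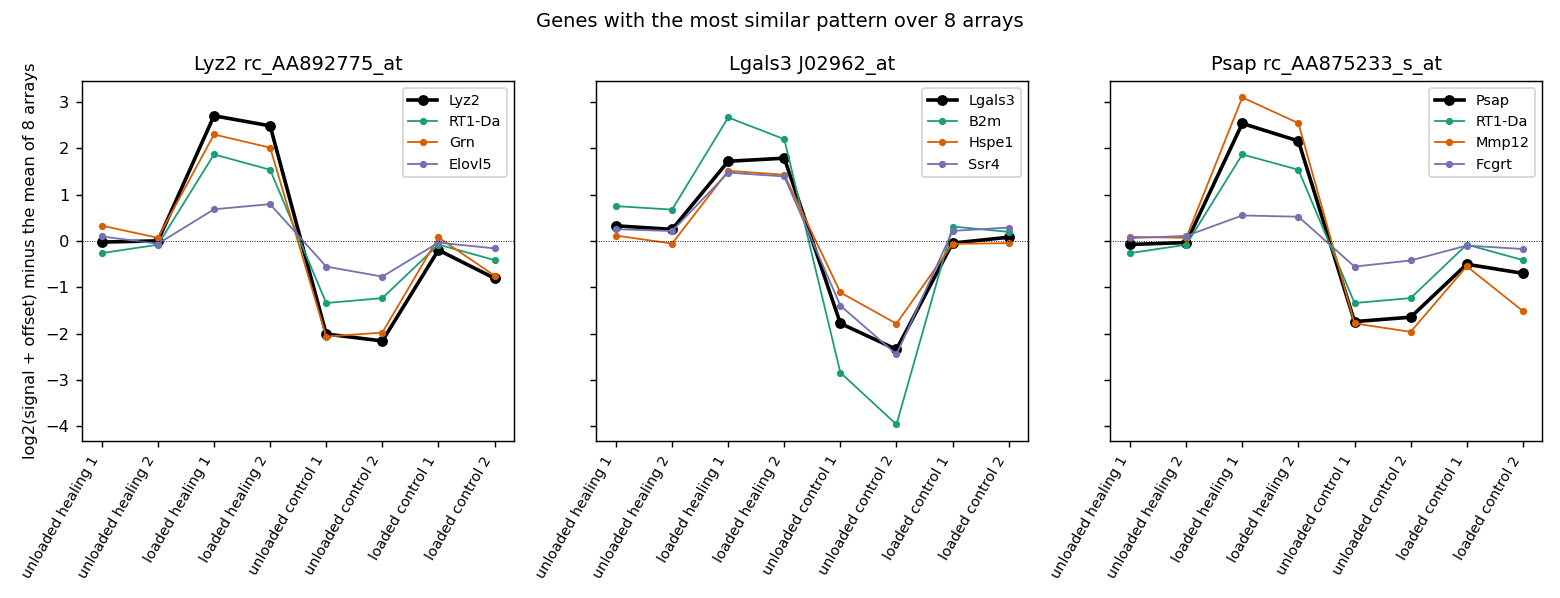
Log2(signal + offset) minus the mean of the 8 arrays, for Lyz2, Lgals3 and Psap on rc_AA875233_s_at (black) and the 3 genes with the most similar pattern over 8 arrays (colours). All lines peak on the loaded healing arrays and are lowest on the unloaded control arrays, with correlations of 0.981 to 0.993.

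Whether the samples' macrophage markers move with the members was described with a list of macrophage and myeloid genes that holds none of the 3. This list and those below were written with earlier results of these data known. For all of them, the shares called by limma over all probe sets are the background. Loaded healing against loaded control had 1.03% higher and 0.992% lower, and unloaded against loaded healing 0.763% higher and 0.858% lower. Unloaded healing against unloaded control had 6.41% higher and 1.05% lower, and unloaded against loaded controls 0.591% higher and 6.22% lower. The array carries 28 genes of the macrophage and myeloid list, and 22 passed the filter. In loaded healing against loaded control 6 of these 22 rose and 0 fell by limma, with a list median of 0.32 and 14 of 22 positive, where the median of all probe sets was -0.03 and 47.5% were positive. Spp1, which encodes the matrix protein osteopontin, rose 19.3-fold (log2 4.27 ± 0.33, adjusted p = 0.000223), and Mmp12 rose 14.4-fold (3.85 ± 0.44, adjusted p = 0.00212). Cathepsin S, Ctss, rose by 2.00 ± 0.27, lipoprotein lipase, Lpl, by 1.95 ± 0.31, and RT1-Da by 1.95 ± 0.23. Other probe sets of the same genes were lower in size: RT1-Da read 0.90 and Lpl 1.25 and 0.84 on theirs, none past the threshold. Genes of the list that were not called ran from -1.63 ± 0.49 for Alox5ap to 1.88 ± 0.72 for Fcgr2b. Among them C1qc read 0.02 ± 0.27 and Aif1 -0.08 ± 0.39. RT1-Ba (-0.21 ± 0.27), RT1-Db1 (-0.16 ± 0.60) and RT1-Bb (0.56 ± 0.44), class II genes like RT1-Da, were not called either. Leaving out loaded healing array 1 left 2 of the 6 calls, and a variance prior without the intensity trend left 3.

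Of the defining markers, Cd14, Csf1r and Itgam were not higher in loaded healing than in loaded controls, and the probe sets of Ptprc disagreed. Cd14, the lipopolysaccharide co-receptor, read 615.9 and 1069 in loaded healing and 705.9 and 1063 in loaded controls on AF087943_s_at, and its other probe set overlapped as well. Csf1r, the receptor for the macrophage growth factor, read 64.5 and 74.0 in loaded healing and 99.8 and 95.2 in loaded controls, and it did not pass the filter. The integrin Itgam did not pass it either. Ptprc, the leukocyte antigen CD45, read 229.1 and 183.6 in unloaded healing, 522.2 and 542.5 in loaded healing, 2.1 and 51.4 in unloaded controls, and 16.9 and 14.6 in loaded controls on K03039mRNA_s_at. That probe set failed the filter on mean signal, and on M25823_s_at the loaded healing arrays read 953.9 and 719.0 and the loaded controls 727.2 and 833.6. Ptprc on M10072mRNA_s_at also failed the filter, at 46.6 and 156.1 in loaded healing and 73.7 and 118.8 in loaded controls. The arrays thus measured Lyz2, Lgals3 and Psap in whole ligament, and the cells that carried them were not measured.

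In unloaded against loaded healing, 6 of the 22 macrophage and myeloid genes fell and 0 rose. The list median was -0.34 with 8 of 22 positive, against 0.06 and 53.9% over all probe sets. Spp1 fell 13.7-fold (log2 -3.78 ± 0.33, adjusted p = 0.000518), Mmp12 6.68-fold (-2.74 ± 0.44, adjusted p = 0.0148) and Lpl 4.15-fold (-2.05 ± 0.31, adjusted p = 0.0111). RT1-Da fell by 1.87 on the log2 scale and Ctss by 1.43. Other probe sets of RT1-Da (-0.50) and Lpl (-0.67 and -0.51) did not pass the threshold. Genes of the list that were not called ran from -2.29 ± 0.65 for Cyba to 0.76 ± 0.49 for Alox5ap. Between them C1qc read 0.10 ± 0.27 and Aif1 0.14 ± 0.39. Without loaded healing array 1 there was 1 call, without loaded healing array 2 or unloaded healing array 2 there were 2, and without unloaded healing array 1 there were 3. Unloaded healing against loaded control gave 0 limma calls in either direction among the 22, with 2 at an unadjusted p under 0.05 and a median of 0.09. In unloaded rats 4 of 22 rose in healing against control, among them the invariant chain gene Cd74 (3.56 ± 0.40), the apolipoprotein Apoe (3.11 ± 0.24) and Mmp12 (1.95 ± 0.44). In unloaded against loaded controls 3 fell: Cd74 (-3.51 ± 0.40), Apoe (-2.47 ± 0.24) and RT1-Da (-1.04 ± 0.23). The list median was 0.05 with 11 of 22 positive in unloaded healing against unloaded control, beside -0.23 and 37.2% over all probe sets. Between the control groups it was 0.18 with 12 of 22 positive, beside 0.23 and 64.8%, so the list as a whole did not follow its called genes there.

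The summed signal of this list was 24645 to 25586 in unloaded healing, 56590 to 65795 in loaded healing, 16270 to 16372 in unloaded controls and 20764 to 21410 in loaded controls. It had the group order of Lyz2, with no overlap, but that order leaned on Apoe, the brightest gene of the list. Apoe read 9926 and 8843 in unloaded healing and 22010 and 20531 in loaded healing. In unloaded controls it read 782.8 and 1380, and in loaded controls 6287 and 5667. Without Apoe the sums of unloaded healing, unloaded controls and loaded controls overlap, and only loaded healing stands apart.

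Psap acts in the lysosome, and a list of lysosomal enzymes and membrane proteins described its surroundings. Of 26 genes on the array 22 passed the filter. In loaded healing against loaded control the list median was 0.58 with 19 of 22 positive, against -0.03 and 47.5% over all probe sets. In that comparison 3 of the 22 rose and 0 fell. They were cathepsin K, Ctsk, a collagen-degrading protease also known from osteoclasts (2.61 ± 0.49, adjusted p = 0.0266), Ctss, which also stands in the macrophage list, and Atp6v0c, a subunit of the proton pump (1.45 ± 0.30, adjusted p = 0.0449). Atp6v0c read -0.21 on its other probe set. Without loaded healing array 1 or 2 there were 0 calls, and without loaded control array 2 there was 1.

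In unloaded against loaded healing the lysosomal median was -0.70 with 1 of 22 positive, against 0.06 and 53.9% over all probe sets. Among the 22 genes 1 fell by limma, Ctss (-1.43 ± 0.27, adjusted p = 0.0297). That single call was lost when any one of loaded control array 1, loaded healing array 1 or 2, or unloaded healing array 1 or 2 was left out. Ctsk read -0.49 ± 0.49 there. Unloaded healing against loaded control gave 0 limma calls, with 1 gene at an unadjusted p under 0.05 and a median of 0.02. In unloaded rats 3 genes rose in healing against control, Ctsk (2.88 ± 0.49), the tetraspanin Cd63 (2.58 ± 0.37) and Atp6v0c (2.11 ± 0.30). In unloaded against loaded controls Cd63 (-2.36 ± 0.37), cathepsin B, Ctsb (-2.08 ± 0.43), and Atp6v0c (-1.66 ± 0.30) fell. In these 2 comparisons the list median was 0.19 and 0.03, with 12 of 22 positive in each.

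Of the partners and receptors of prosaposin, 4 were on the array and 2 passed the filter. Grn encodes progranulin, a lysosomal protein that binds prosaposin and helps carry it to the lysosome. On X62322_g_at it read 1482 and 1230 in unloaded healing, 5929 and 4864 in loaded healing, 245.3 and 263.5 in unloaded controls, and 1236 and 678.6 in loaded controls. It rose 5.62-fold in loaded healing against loaded control (log2 2.49 ± 0.32, adjusted p = 0.00383) and fell 3.88-fold in unloaded against loaded healing (-1.96 ± 0.32, adjusted p = 0.0168). It was also higher in healing than in control ligament of unloaded rats (2.22 ± 0.32) and lower in unloaded than in loaded controls (-1.68 ± 0.32).

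As with Psap, the probe sets of Grn differed: X62322_at read 0.31 and -0.33 in the first 2 comparisons, neither past the threshold. The call in loaded rats was lost without loaded healing array 1, and the call between healing groups without any one of the 4 healing arrays. Averaging the probe sets of each gene left 0 calls in this list in both comparisons. The other gene tested was Asah1, the acid ceramidase, an enzyme that needs a saposin; it read 0.63 ± 0.55 in loaded healing against loaded control and -0.27 ± 0.55 in unloaded against loaded healing.

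Of the galectins and galectin-3 ligands, 17 were on the array and 14 were tested. In loaded healing against loaded control 2 rose and 0 fell, with a median of 0.24. Spn, the leukocyte sialoglycoprotein CD43, rose by 2.79 ± 0.60 (adjusted p = 0.0492) and fibronectin, Fn1, by 1.36 ± 0.25 (adjusted p = 0.0261). Fn1 also fell 3.81-fold in unloaded against loaded healing (-1.93 ± 0.25, adjusted p = 0.00442), the 1 call of the list in that contrast, with a list median of -0.15. Both values of Fn1 are those of X05834_at. Its other probe sets past the filter, U82612cds_at and U82612cds_g_at, read 0.11 and -0.99 in loaded healing against loaded control and 0.56 each in unloaded against loaded healing, none past the threshold. Among the galectins themselves Lgals1 read -0.47 ± 0.24, Lgals8 0.51 ± 0.38 and Lgals9 -0.49 ± 0.47 in loaded healing against loaded control, none of them past the threshold. In the comparisons with unloaded controls Lgals1 rose in unloaded healing against unloaded control (4.56 ± 0.24) and was lower in unloaded than in loaded controls (-4.74 ± 0.24). Unloaded healing against unloaded control gave 2 higher and 2 lower calls, with Fn1 higher (1.30 ± 0.25) and Lgals8 lower (-1.72 ± 0.38), and unloaded control against loaded control gave 0 higher and 2 lower, the second being Fn1 (-1.87 ± 0.25). Unloaded healing against loaded control gave 0 limma calls, with 2 genes at an unadjusted p under 0.05. No galectin or ligand call in loaded healing against loaded control remained when loaded control array 1 or 2 or loaded healing array 1 or 2 was left out, and 1 remained without either unloaded control array. The Fn1 call between healing groups was lost without loaded healing array 1 or unloaded healing array 2.

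Lysozyme is also stored in neutrophil granules. Of 7 genes tested from a neutrophil granule and surface list, 0 passed limma's adjusted threshold in any of the 5 comparisons. In each comparison 1 or 2 had an unadjusted p under 0.05 by limma. Selp, 1 of the 7, encodes P-selectin, a protein of platelets and endothelium. It counts in the sum below at 737.4 to 1215 per array. The peptidoglycan recognition protein Pglyrp1 read 1.81 ± 0.53 (adjusted p = 0.160) and the defensin Defa5 1.53 ± 0.74 in loaded healing against loaded control. Lcn2, a granule lipocalin, read 1.92 ± 0.53 and Defa5 -1.25 ± 0.74 in unloaded against loaded healing. The summed neutrophil signal was 3232 to 3259 in unloaded healing, 2437 to 2926 in loaded healing, 3270 to 3570 in unloaded controls and 2198 to 2372 in loaded controls. It was thus higher in loaded healing than in loaded controls, like Lyz2, and higher still in unloaded healing, unlike Lyz2. S100a8 did not pass the filter, and for S100a9 the loaded healing arrays (248.0 and 47.3) spanned the loaded controls (192.1 and 206.3).

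The other cell types were described in the same way. Of 4 osteoclast markers tested, Ctsk rose in loaded healing against loaded control, while Acp5 read -0.88 ± 0.52 and Ctsk -0.49 ± 0.49 in unloaded against loaded healing, and Ctsk rose again in unloaded healing against unloaded control. The summed osteoclast signal was 2424 to 2724 in unloaded healing, 3282 to 3429 in loaded healing, 1714 to 1986 in unloaded controls and 1603 to 1824 in loaded controls. It was highest in loaded healing through Ctsk, which read 2076 and 1317 there and 356.3 and 147.5 in loaded controls. Between these groups Acp5 (0.10 ± 0.52), Car2 (0.03 ± 0.41) and Itgb3 (0.66 ± 0.65) were not called. Of 15 lymphocyte and mast cell markers 0 passed limma's adjusted threshold in any comparison, and 1 or 2 had an unadjusted p under 0.05 in each. Cd48 read 1.54 ± 0.63 and Cd5 -1.15 ± 0.62 in loaded healing against loaded control, and Tpsb2 0.56 ± 0.22 and Cd37 0.56 ± 0.67 in unloaded against loaded healing. The part of these cell types in the signals of Lyz2, Lgals3 and Psap was not tested.

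**Figure D4:**
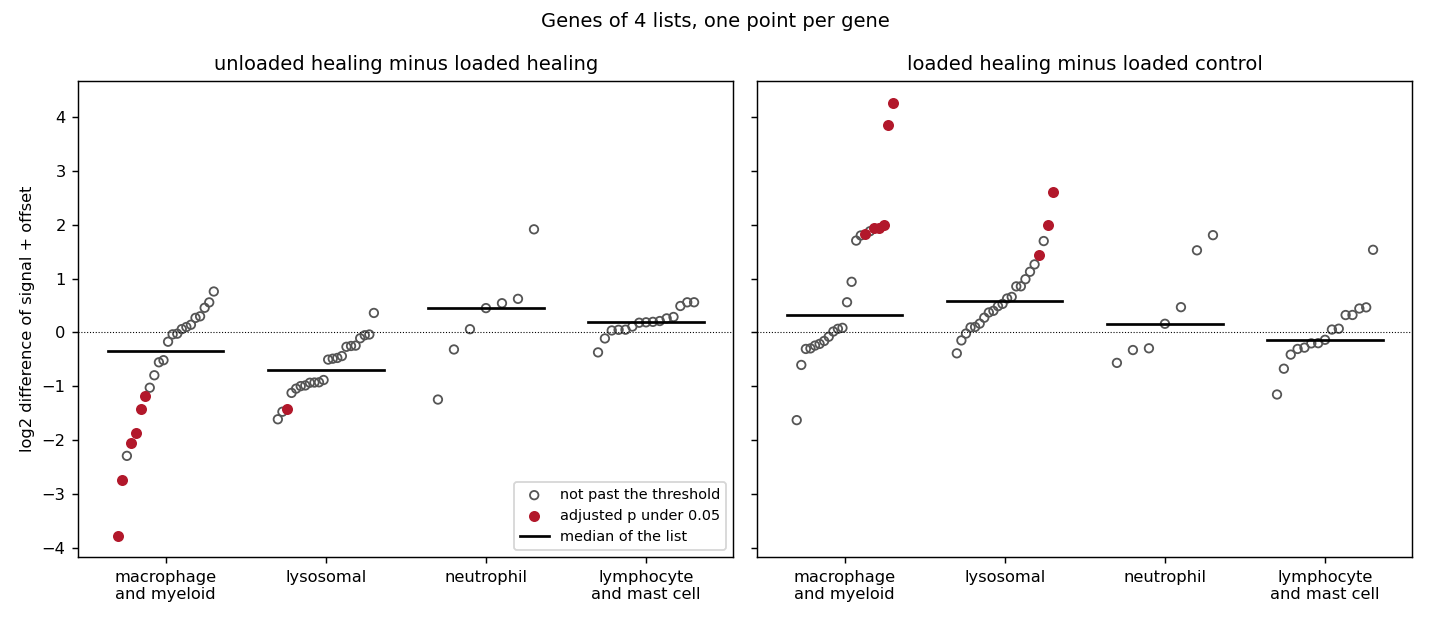
Log2 difference of every tested gene of 4 lists in unloaded minus loaded healing (left) and in loaded healing minus loaded control (right); filled points passed limma's adjusted threshold of 0.05 and bars are list medians. The macrophage and myeloid list holds 6 called genes in each panel, the lysosomal list 1 and 3, and the neutrophil and lymphocyte lists 0.

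Of 17 tendon and ligament fibroblast genes, 1 rose and 4 fell in loaded healing against loaded control. S100a4 rose by 1.00 ± 0.18, and the matrix genes Comp (-2.74 ± 0.45), Pcolce (-2.57 ± 0.46), Sparc (-1.66 ± 0.17) and Bgn (-1.38 ± 0.25) fell. Another bright probe set of Sparc, Y13714_at, read 0.11 and did not pass. In unloaded against loaded healing 2 rose and 4 fell, among them Pcolce (2.89 ± 0.46), Thy1 (-2.66 ± 0.31), the collagen genes Col1a2 (-1.99 ± 0.19) and Col3a1 (-1.20 ± 0.23), and S100a4 (-1.16 ± 0.18). Col3a1 read 0.70 on its other probe set, M21354_s_at, which did not pass. The summed signal of these genes was 85577 to 106974 in unloaded healing. It overlapped between loaded healing (141271 to 162717) and loaded controls (144626 to 165010). That overlap leaned on Sparc on rc_AA892248_at, which read 12677 and 11370 in loaded healing and 37960 and 38170 in loaded controls. Without Sparc both loaded healing sums lie above both loaded control sums, the order also seen for Lyz2, Lgals3 and the first Psap probe set. In unloaded healing against unloaded control 10 of 17 rose, led by Col1a1 (5.76 ± 0.20), Sparc (4.28 ± 0.17) and Col3a1 (4.02 ± 0.23). Against loaded controls the unloaded controls read -6.44 ± 0.20, -5.04 ± 0.17 and -4.33 ± 0.23 for the same 3 genes. Other probe sets of these genes went the same way with smaller differences. Col1a1 on Z78279_at read 3724 and 3467 in unloaded healing, 1776 and 2426 in unloaded controls, and 5328 and 5623 in loaded controls. In the same groups Col3a1 on M21354_s_at read 1036 and 2022, 690.3 and 625.5, and 1330 and 1542. Sparc on Y13714_at read 3825 and 3517, 763.3 and 1080, and 5514 and 4567.

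Control probe sets of the array differed between the groups as well. The actin 3′ control read 4786 and 5235 in unloaded healing, 1353 and 1597 in loaded healing, 1284 and 1494 in unloaded controls, and 4393 and 4955 in loaded controls. The 3′ probe set of GAPDH gave 1948 and 1872 in unloaded healing, 1039 and 842.6 in loaded healing, 1886 and 2283 in unloaded controls, and 2278 and 2335 in loaded controls. Both were lower on the loaded healing arrays than on the unloaded healing and loaded control arrays, opposite to Lyz2, Lgals3 and Psap on rc_AA875233_s_at. Their part in the members' differences was not tested. When arrays were instead scaled on the BioC, BioDn and CreX spike-in controls, the all-probe-set median moved to 0.34 in loaded healing against loaded control and to -0.40 in unloaded against loaded healing, and the Lyz2 difference became 3.49 and -3.10, that of Lgals3 2.13 and -1.95, and that of Psap on rc_AA875233_s_at 3.35 and -2.90. Under the same scaling M19936_at read -0.13 and S81353_s_at 0.13 in loaded healing against loaded control, so the sign of S81353_s_at turned. The spike-ins did not move together on unloaded healing array 2. BioB, which was left out of the scaling, read 761.0 there on its middle probe set and 5443 to 27208 on the other arrays, and the BioC 5′ probe set, which was used, read 5968 there and 8637 to 15243 on the others.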

How the data were processed

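Expression was read on 8 one-colour arrays of rat medial collateral ligament, 2 in each of 4 groups taken from the sample titles. The deposited values are linear signal intensities per probe set. The authors had scaled them between arrays, since the 2% trimmed mean was 500.3 to 500.6 on every array; the software is not given in the sources used here. The probe table named 7018 probe sets by 1 symbol, 308 by several and 1473 by none, and 6994 of the first matched RefSeq by identifier. Without its 59 controls, the table was taken to log2 after adding 45.8, the 10th percentile of all signals, and dim probe sets (the lowest 40% by mean log2) were dropped, which kept 5244. Group means were compared with lmFit and eBayes (intensity trend) of limma, version 3.58.1, under R, version 4.3.3, on 4 residual and 5.81 prior degrees of freedom. The 5 comparisons were tested two-sided, each with Benjamini-Hochberg adjustment across the 5244 probe sets and a threshold of 0.05, and the code was tested on simulated data. Fold changes include the offset, which shrinks those of dim probe sets, and the number of arrays limits every precision. Alternatives were other scalings (quantile, median, spike-in controls), other offsets and filters, other variance priors, a replicate term, averaged probe sets, no unloaded controls, and leaving out each array.

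The members and the 8 gene lists were chosen with earlier results of these data known. Each list used the brightest probe set per gene. Named genes were, for each member probe set, the 3 most similar over 8 and over 6 arrays, and from each list up to 5 past the threshold in the comparisons with loaded healing (2 given as values where none passed) and up to 3 in the others. Cd14, Csf1r, Itgam, Ptprc, S100a8 and S100a9 were added as defining markers after their values were seen. Asah1, Lgals1, Lgals8, Lgals9, Alox5ap, Cyba, Fcgr2b, C1qc, Aif1, RT1-Ba, RT1-Db1, RT1-Bb, Selp, Car2 and Itgb3 were added as values, likewise after they were seen. Same-numbered arrays had deviations that correlated at 0.000779 to 0.204 over 6 pairs of groups, so the numbers were not taken to pair samples.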

Additional observations from a re-analysis of the deposited data

Results flagged for a closer look

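On the Psap probe set S81353_s_at both unloaded healing arrays (835.1 and 318.3) lay above both unloaded controls (285.8 and 170.5), while both loaded healing arrays (203.7 and 205.1) lay below both loaded controls (227.0 and 260.1). Over all probe sets 18.7% lay above in the comparison of unloaded rats and 20.3% below in that of loaded rats. The healing difference was 1.08 ± 0.57 in unloaded rats and -0.21 ± 0.57 in loaded rats, the latter smaller than its SE. Loaded minus unloaded came to -1.29 on the log2 scale. This difference between loaded and unloaded rats was not tested, and of the controls only the loaded ones had sham surgery. Without unloaded healing array 1 the healing difference in unloaded rats was 0.44, and with the arrays scaled to the spike-in controls the loaded value turned to 0.13.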

How the results depend on the processing

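Lyz2, Lgals3 and Psap on rc_AA875233_s_at kept their direction in both comparisons with loaded healing under each of the 15 settings that give a value per probe set. Below, the first comparison is loaded healing against loaded control and the second is unloaded against loaded healing; the cause of each change was not tested. Quantile normalization gave Lgals3 1.55 and -1.28 and Lyz2 -2.37 in the second. An offset 4 times as large gave Lgals3 1.63 and -1.38 and M19936_at -0.37, and a floor without offset gave M19936_at -0.55. Spike-in scaling gave Lyz2 3.49 and -3.10, Lgals3 2.13 and -1.95, rc_AA875233_s_at 3.35 and -2.90, M19936_at -0.13 and 0.26, and S81353_s_at a turned sign (0.13) in the first. It also gave 84 higher and 22 lower calls in the first, where the main setting gave 54 and 52, and 137 calls in the second (18 higher, 119 lower, against 40 and 45).

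Calls over all probe sets numbered 106 in the first comparison and 85 in the second. They became 64 and 42 with median centring, 29 and 16 without the intensity trend, and 70 in the first without a filter. In the first comparison the macrophage list fell to 3 without the trend, and the lysosomal list to 1 without a filter or without the trend. Galectins and ligands fell to 0 with median centring, no filter, no trend or averaged probe sets, and to 1 with quantile normalization, a floor, a filter at 60%, a robust fit or no unloaded controls. Prosaposin partners fell to 0 with averaged probe sets. In the second comparison the macrophage list fell to 1 without the trend, the lysosomal list to 0 with median centring, no filter or no trend, and prosaposin partners and galectins to 0 without the trend or with averaged probe sets, while spike-in scaling gave 4 lysosomal and 2 galectin calls.

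Leaving out 1 array at a time gave, in the first comparison, 2.79 to 3.40 for Lyz2, 1.67 to 1.80 for Lgals3, 2.76 to 3.13 for rc_AA875233_s_at, -0.54 to -0.44 for M19936_at and -0.29 to -0.12 for S81353_s_at, with 27 to 96 calls, 2 to 6 for macrophage, 0 to 2 for lysosomal, 0 to 1 for partners and 0 to 2 for galectin genes. In the second it gave -2.71 to -2.49 for Lyz2, -1.50 to -1.43 for Lgals3, -2.59 to -2.21 for rc_AA875233_s_at, 0.36 to 1.07 for M19936_at and 0.54 to 1.82 for S81353_s_at, with 25 to 84 calls, 1 to 6 for macrophage and 0 to 1 for each of the others. The lowest counts over all probe sets came without loaded healing array 1 (27 and 25) and, in the second, also without unloaded healing array 2 (25). The lone array left in a group is assumed to vary like the other groups. Cd37, which passed no threshold, ran from -0.28 to 1.40 in the second, with its sign turned without loaded healing array 2.

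With replicate number as a block the member differences were the same, and calls were 123 and 102; the arrays share only a number.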
